A study of Mus musculus with 12 samples.

Results

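The cytosolic ribosomal protein genes were taken as every row of the count table whose symbol begins with Rpl or Rps and goes on with a number, with or without a closing letter or digit, together with the stalk proteins Rplp0, Rplp1 and Rplp2. Pseudogenes carrying a -ps suffix were left out. The rule found 83 of 24421 symbols, of which 43 encode proteins of the large subunit, 30 encode proteins of the small subunit, 3 encode the stalk and 7 are paralogs of other members. RNA was measured by RNA-seq in SMCCs, an immortalized line of mouse small cholangiocytes, the epithelial cells of small bile ducts. There were 12 libraries, 3 in each of 4 groups. Cells received an siRNA against Ctnnb1, the gene of β-catenin (si-Ctnnb1), or a control siRNA (si-CTL), both with RNAiMAX for 24 hr. Other cells received a plasmid for the stable β-catenin mutant S45Y or an eGFP plasmid, both with Lipofectamine 3000 for 48 hr. All groups were transfected, and no untransfected cells were analysed here. The nucleic acid, the reagent and the hours changed together between the siRNA and the plasmid groups and cannot be told apart. Transfection reaches some of the cells in a well, and each library is an average over all of them. The labels do not say that replicates were separate cultures, so the p-values measure the spread between libraries, which may be technical.

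A ribosome joins a small subunit, which reads the mRNA, with a large subunit, which links the amino acids, and each carries ribosomal RNA together with a large set of small basic proteins. Their mRNAs are short, are among the most abundant in growing cells, and typically start with a C followed by a run of pyrimidines, the terminal oligopyrimidine tract, through which mTOR signalling controls their translation. Ribosomal protein genes have left many processed pseudogenes, so a read from one of their mRNAs often matches several places in the mouse genome.

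Library totals ran from 221767 to 326686 counts in the siRNA groups and from 91468 to 122304 in the plasmid groups. Ctnnb1 had 13, 38 and 28 counts in si-CTL and 0, 11 and 3 in si-Ctnnb1, with no overlap, and fell by 2.54 on the log2 scale (edgeR quasi-likelihood test, adjusted p = 0.00491). The S45Y and eGFP libraries overlapped for Ctnnb1, with 11, 4 and 18 against 6, 11 and 10 counts. Of 10 cholangiocyte markers, Krt8, Krt18, Krt19 and Spp1 had 365 to 1150 counts each over the 12 libraries, Krt7 and Sox9 had 24 and 14, and Epcam, Cftr and Onecut1 had 0. The summed share of these 10 markers ran from 0.0763% to 0.128% of the counts in the siRNA libraries and from 0.137% to 0.195% in the plasmid libraries. Of 6 hepatocyte markers, Apoa2 had counts and 5 had none, Alb and Ttr among them, and of 4 leukocyte markers 3 had none, Ptprc among them. Of 6 fibroblast or stellate markers, Vim had 384 counts, Acta2 180, Pdgfrb 4 and Col1a1 2, Col1a2 and Col3a1 had 0, and the 3 endothelial markers had at most 6 counts each.

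The 83 ribosomal protein genes together held 16512 of 2424120 counts, which is 0.681% of the counts on 0.340% of the rows. In si-CTL the summed share was 0.548%, 0.746% and 0.654% of the library's counts. In si-Ctnnb1 it was 0.677%, 0.638% and 0.691%. The si-CTL libraries enclosed those of si-Ctnnb1, and the spread within si-CTL was the widest of the 4 groups. In eGFP the share was 0.765%, 0.705% and 0.720%, and in S45Y it was 0.664%, 0.722% and 0.754%. These groups overlapped as well. The means were 0.649% ± 0.0988 for si-CTL, 0.669% ± 0.0277 for si-Ctnnb1, 0.730% ± 0.0313 for eGFP and 0.713% ± 0.0457 for S45Y (SD, n = 3 libraries each). The 95% Wilson interval was 0.518% to 0.580% for the lowest si-CTL library and 0.717% to 0.776% for the highest, so these libraries of the same group differed by more than counting error. Such intervals cover counting error only, because reads without molecular identifiers are not independent molecules. No test was made of the summed share. In bulk RNA, fewer cells of a type and less RNA per cell cannot be told apart.

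**Figure D1:**
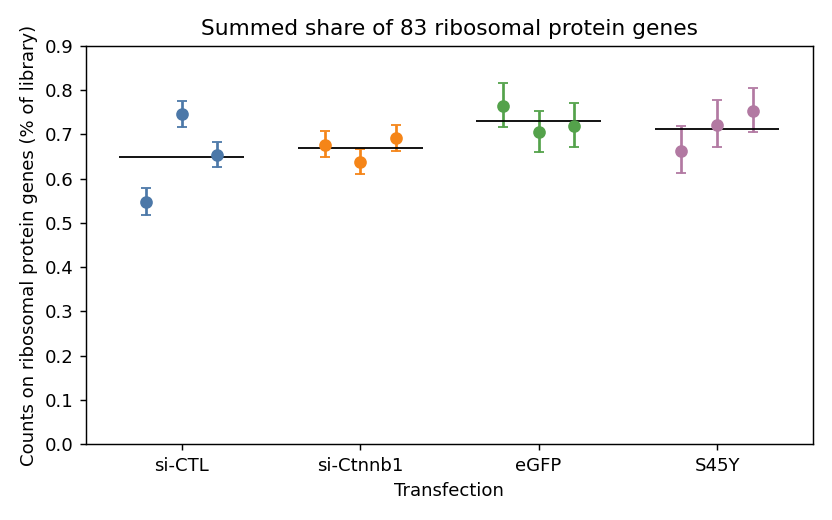
Share of each library's counts on the 83 ribosomal protein genes (y axis, percent) for the 4 transfections (x axis), with 1 point per library, its 95% Wilson interval, and a black line at the group mean. The lowest library is in si-CTL (0.548%) and the highest in eGFP (0.765%), and each treated group overlaps its control.

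Rn45s, the row of the ribosomal RNA precursor, moved with the transfection and held 4.31% ± 1.03 of each si-CTL library, 2.15% ± 0.463 of each si-Ctnnb1 library, 12.6% ± 2.69 for eGFP and 12.9% ± 2.47 for S45Y (SD, n = 3 libraries per group). With that row left out of the library total, the mean ribosomal protein share was 0.678% ± 0.0968 for si-CTL, 0.683% ± 0.0313 for si-Ctnnb1, 0.836% ± 0.0464 for eGFP and 0.819% ± 0.0473 for S45Y (SD, n = 3 each). The share then ran from 0.580% to 0.774% over the siRNA libraries and from 0.781% to 0.872% over the plasmid libraries, without overlap. Each treated group still overlapped its own control, and no test was made of these shares.

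The large subunit held 64.5% of the ribosomal protein counts (10656), the small subunit 32.1% (5300), the stalk 2.49% (411) and the 7 paralogs 0.878% (145). For the ratio of large-subunit to small-subunit counts, the stalk was counted with the large subunit. This ratio was 2.08 ± 0.102 for si-CTL, 1.99 ± 0.240 for si-Ctnnb1, 2.37 ± 0.305 for eGFP and 2.09 ± 0.134 for S45Y (SD, n = 3 each). All 4 groups overlapped in this ratio, which ran from 1.71 to 2.71 over the libraries. Per length of transcript the subunits were alike, with a median of 155 counts per kb over the large-subunit genes and 159 counts per kb over the small-subunit genes.

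Counts were unevenly spread over the genes, although the proteins are built into the ribosome in near-equal numbers. The median gene had 116 counts over the 12 libraries, with quartiles of 47 and 223. The 10 genes with the most counts held 46.5% of the total. Rpl4, a large-subunit protein near the exit tunnel, alone held 12.6%, with counts of 201, 284 and 275 for si-CTL, 243, 226 and 237 for si-Ctnnb1, 103, 117 and 123 for eGFP, and 84, 82 and 110 for S45Y. It was the gene with the most counts among the 83 in every library, and it ranked 210 of the whole table. Next came Rpl27a with 923 counts, Rpl19 with 736, Rps24 with 665, Rpl5 with 611, Rpl8 with 578, Rps25 with 568, Rpl41 with 553 and Rps26 with 499. Rpl12, Rpl36 and Rps14 tied at 459. The deeper siRNA libraries weigh most in these totals. Rpl27a had 99 counts in eGFP and 79 in S45Y, below Rpl19 with 110 and 111. Rpl5 binds 5S ribosomal RNA, and Rpl41 is the smallest protein of the ribosome. Per length of transcript the order changed, and after Rpl4 with 1356 counts per kb came Rpl36 with 1198, Rpl41 with 1017, Rps25 with 984 and Rpl19 with 980 counts per kb. The transcript of Rpl36 is 383 bases long and that of Rpl4 is 1538 bases long.

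**Figure D2:**
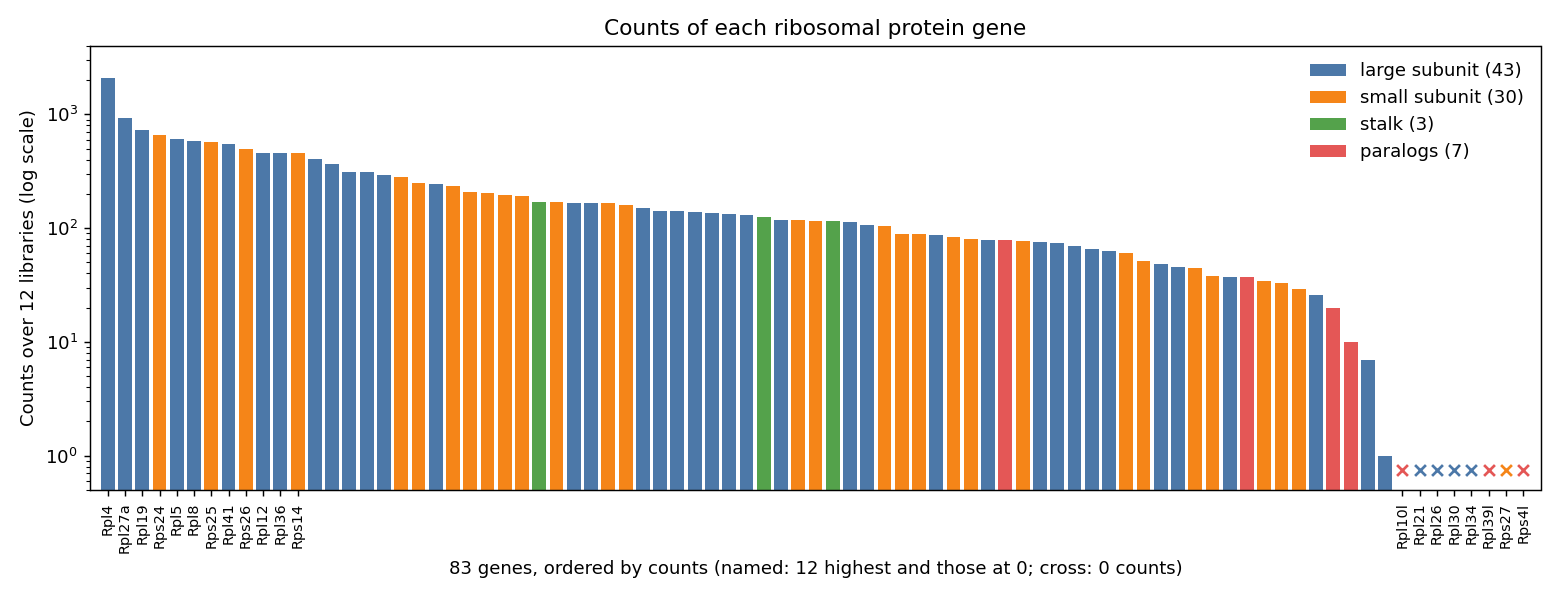
Counts over the 12 libraries (y axis, log scale) of each of the 83 ribosomal protein genes (x axis, ordered by counts, with the 12 highest and the genes at 0 named), coloured by subunit, with crosses for genes at 0. Rpl4 stands above the rest with 2085 counts, the counts fall steadily from there, and the right end holds 8 genes at 0.

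Of the 996 values (83 genes in 12 libraries), 178 were 0. Only 13 of the genes had at least 10 counts in every library, and 45 had at least 1 count in every library. The number of ribosomal protein genes at 0 ran from 8 to 15 in the siRNA libraries and from 12 to 22 in the less deeply sequenced plasmid libraries. No count in any library was found for 8 of the genes (9.64%, against 41.1% of all rows in the table). These were Rpl21, Rpl26, Rpl30 and Rpl34 of the large subunit, Rps27 of the small subunit, and the paralogs Rpl10l, Rpl39l and Rps4l. Rps4l carries no -ps suffix but is annotated as a transcribed processed pseudogene in GENCODE M21, and the other 82 genes are annotated as protein-coding. A count of 0 allows up to 3 counts over all libraries, or a CPM (the count scaled to library size) of 1.24. Rpl29 had a single count, in si-CTL replicate 2, and Rpl35a had 7. The 5 core genes at 0 encode proteins that sit in every cytosolic ribosome, whereas Rpl10l and Rpl39l are known from the testis.

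The zeros were compared with sequence shared between genes. A stretch of 50 bases of a transcript was called shared where it also occurs in the transcript of a gene at another place in the mouse annotation (GENCODE M21, mm10), be it a pseudogene or another gene. Of the 83 genes, 80 shared such a stretch with at least 1 pseudogene, with a median of 8 pseudogenes per gene and up to 120. The median gene shared 50.6% of its stretches. Rps27 had the highest share, 98.7%, with 8 pseudogenes. The table also holds Rps27rt, a retrogene on another chromosome, likewise with 0 counts in every library. The coding sequences of Rps27 (chr3:90212725-90213615, minus strand, GRCm38, spliced) and Rps27rt (chr9:114982453-114982707, minus strand, GRCm38, in 1 block) are both 255 bases long and 100% identical, with 0 differences. It is shown because a read from within it cannot be given to either gene by sequence, and the capitals mark the start and stop codons.
Rps27 and Rps27rt: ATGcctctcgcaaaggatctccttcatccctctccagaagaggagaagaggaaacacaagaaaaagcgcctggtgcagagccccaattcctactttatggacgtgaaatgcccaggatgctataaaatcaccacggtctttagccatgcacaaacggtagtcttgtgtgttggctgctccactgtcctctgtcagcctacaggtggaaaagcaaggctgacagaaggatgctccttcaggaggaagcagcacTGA

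At the other end, Rpl39l shared 0% and Rpl10l 7.60% of their stretches, and both also had 0 counts. Rpl21 shared 55.5% of its stretches, Rpl26 71.3%, Rpl30 47.8% and Rpl34 50.6%. By this percentage Rpl21, Rpl30 and Rpl34 lay near the median of the set and Rpl26 above it. By number of pseudogenes each lay above the median of 8, with 81 for Rpl21, 12 for Rpl26, 16 for Rpl30 and 9 for Rpl34. Rpl29, with 1 count, also had 81, whereas Rpl7a, with the most (120), had 78 counts. Rpl36, at 81.1% of stretches shared, and Rpl19, at 79.3%, were among the 5 highest per kb. Grouped by the shared part, the 16 genes with under 25% had a median of 55.0 counts per kb, the 25 genes from 25% to under 50% had 223, the 22 genes from 50% to under 75% had 126, and the 20 genes from 75% had 96.9 counts per kb. The group that shared least holds 6 of the 7 paralogs. It also holds Rps15a and Rps20, which were measured against transcript models of 5130 and 3706 bases and had 11.9 and 31.6 counts per kb. Whether the counting dropped reads with several matches is not stated, and its part in the zeros was not tested.

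**Figure D3:**
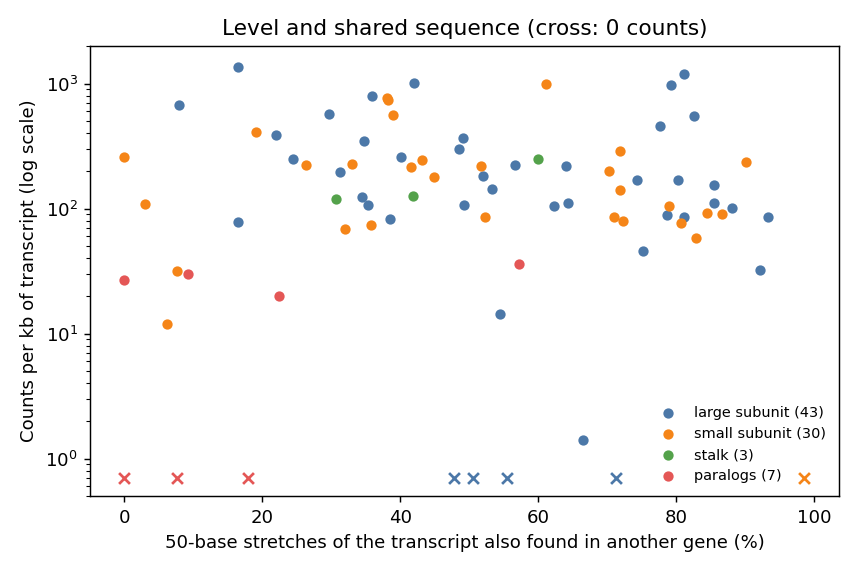
Counts per kb of transcript over the 12 libraries (y axis, log scale) against the share of the transcript's 50-base stretches that also occur in another gene (x axis, percent), 1 point per ribosomal protein gene, with crosses for genes at 0. Genes at 0 appear from 0% to 98.7% shared, and Rpl36 and Rpl19 are among the highest per kb at about 80% shared.

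Paralogs were counted less than the genes they resemble in the 6 pairs whose main gene had counts. Rpl3l, the form of striated muscle, had 37 counts beside 151 for Rpl3, a share of 19.7% (95% Wilson interval 14.6 to 25.9). Rpl7l1 had 78 beside 167 for Rpl7, a share of 31.8% (26.3 to 37.9), and Rpl22l1 had 20 beside 118 for Rpl22, a share of 14.5% (9.58 to 21.3). Rpl10l, Rpl39l and Rps4l had 0 counts beside 26 for Rpl10, 48 for Rpl39 and 77 for Rps4x. For Rps27 the order was the other way round, with 10 counts for Rps27l, a target of p53, and 0 for Rps27. Per length of transcript the order was the same in each pair, with 112 counts per kb for Rpl3 and 26.9 for Rpl3l, for example.

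Exons of 19 of the 83 genes were overlapped by exons of genes running the other way, and without a stated strand setting such reads cannot be told apart. Among the genes with most counts these were Rpl5, overlapped over 953 bases by Fam69a, Rps25, over 668 bases by Trappc4 and Ccdc84, and Rpl12, over 56 bases by Lrsam1. The 64 genes free of such an overlap held 13022 of the counts. Their share of the library was 0.516% for si-CTL, 0.531% for si-Ctnnb1, 0.564% for eGFP and 0.554% for S45Y. Small nucleolar RNA genes lie in the introns of many of these genes, and 26 of the 83 had an exon overlapped by another gene on the same strand. HTSeq by its usual setting sets aside a read that matches more than 1 gene, and the setting used is not given in the sources used here.

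The small values had an unusual pattern. Among values from 1 to 10 counts, 285 of 404 were even numbers (70.5%), against 37862 of 74618 (50.7%) in all other genes. The even share was higher than that of the other genes in all 12 libraries, running from 61.9% to 78.6%. By group, 63 of 84 values were even in si-CTL, 45 of 66 (68.2%) in si-Ctnnb1, 87 of 125 (69.6%) for eGFP and 90 of 129 (69.8%) for S45Y. Of the 47 genes with at least 5 such values, 36 had more even than odd values, 10 had more odd than even and 1 had as many of each. A count of 2 occurred 76 times and a count of 1 occurred 16 times, whereas in the other genes these occurred 18806 and 17964 times. The even share was 70.3% in the genes overlapped on the opposite strand and 70.6% in the others. It was 13 of 15 values in the ribosomal proteins that the naming rule does not match, 59.2% in mitochondrial ribosomal proteins, and 48.6% in other protein-coding genes with up to 2000 bases of exons. The read type is not given in the sources used here. The pattern was noticed after the values were seen, and no test was made of it.

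**Figure D4:**
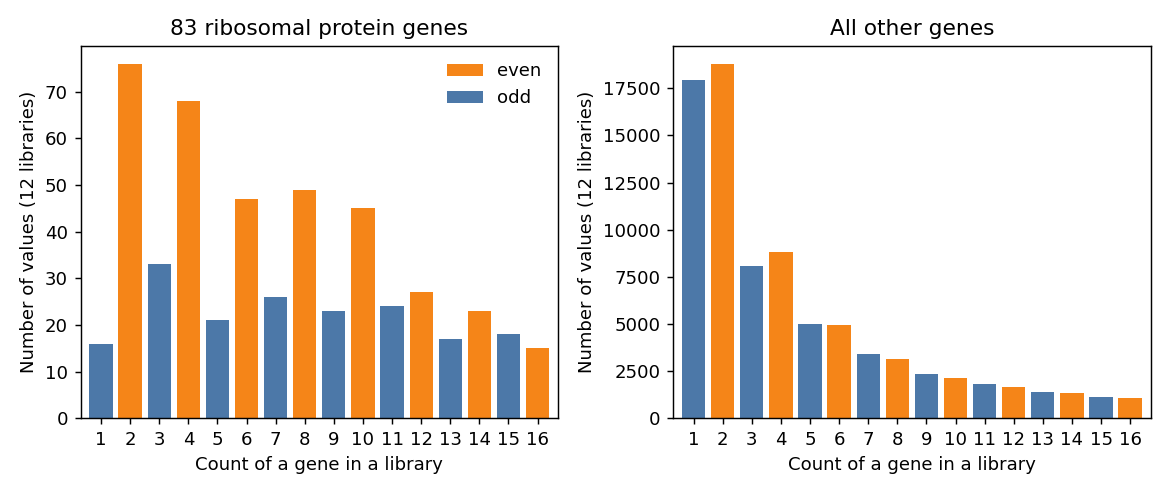
Number of values (y axis) at each count from 1 to 16 (x axis) over the 12 libraries, for the 83 ribosomal protein genes on the left and all other genes on the right, with even counts in orange and odd counts in blue. Among the ribosomal protein genes every even bar up to 14 is taller than both neighbouring odd bars, with 76 values at 2 counts and 16 at 1.

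The spread between replicates of one group was also measured. Genes with a mean of at least 5 counts in the group were used, which left 64, 65, 49 and 40 of the 83 genes in the 4 groups as ordered next. The median variance of such a ribosomal protein gene within a group, divided by its mean count, was 1.66 for si-CTL, 1.47 for si-Ctnnb1, 1.56 for eGFP and 2.05 for S45Y. Over all genes that met the same minimum, 5046, 5010, 3108 and 2784 in number, it was 1.49, 1.46, 1.44 and 1.42.

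Silencing of β-catenin was examined first. No ribosomal protein gene passed the test between si-Ctnnb1 and si-CTL, and the genes moved both ways around 0. Of the 83 genes, 52 had enough counts to be tested, and 0 of them had an adjusted p below 0.05 (edgeR quasi-likelihood test, Benjamini-Hochberg over all 3484 genes tested), where 1.55% of all genes tested did. At an unadjusted p of 0.05 or less there were 7 genes, or 13.5% of those tested, 5 higher and 2 lower, beside 12.5% of all genes tested. With a change of at least 1.5-fold as well there were 6 (11.5%), beside 7.12% of all genes. The groups did not overlap in TMM-scaled values in 3 genes (5.77%), beside 17.8% of all genes. The share at an unadjusted p was thus near that of the whole table. The median log2 fold change of the 52 genes was 0.06, with quartiles of -0.20 and 0.33, and that of all genes tested was -0.0033. DESeq2 also called 0 of the genes by adjusted p, and 2 genes met its unadjusted threshold together with the 1.5-fold change.

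Among the genes that were lower in si-Ctnnb1, Rplp0, the base of the stalk that recruits elongation factors, had 20, 48 and 14 counts in si-CTL and 12, 16 and 13 in si-Ctnnb1. The groups overlapped, and the 48 counts of si-CTL replicate 2 lay apart from the other values. Its log2 fold change was -1.08 ± 0.40 (SE), with an unadjusted p of 0.00933 and an adjusted p of 0.178 in edgeR. Rplp1 had 11, 24 and 17 counts in si-CTL and 19, 12 and 12 in si-Ctnnb1 (log2 fold change -0.36). Rplp2, which pairs with Rplp1 on the same stalk, had 4, 13 and 6 counts in si-CTL and 11, 20 and 20 in si-Ctnnb1, for a log2 fold change of 1.05 ± 0.49 (adjusted p = 0.366, edgeR). The 3 stalk genes thus had values on both sides of 0, and the groups overlapped in each. Rpl27 had 9, 22 and 35 counts in si-CTL and 20, 8 and 8 in si-Ctnnb1, with a log2 fold change of -0.94 ± 0.45, which ran from -1.54 to -0.47 when single libraries were left out. Rps2, of the mRNA entry channel, had 12, 16 and 21 counts in si-CTL and 10, 4 and 15 in si-Ctnnb1, with a log2 fold change of -0.86 ± 0.48, which ran from -1.29 to -0.47 over the same omissions. The groups overlapped in both.

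Of the genes that were higher in si-Ctnnb1, Rpl32 had 16, 34 and 23 counts in si-CTL and 37, 45 and 42 in si-Ctnnb1. All of its si-Ctnnb1 values lay above the si-CTL values, and its log2 fold change was 0.67 ± 0.28 (adjusted p = 0.279, edgeR). Its exact permutation p was 0.1, the smallest that 3 libraries against 3 can give. Rps12 had 4, 20 and 5 counts in si-CTL and 18, 25 and 18 in si-Ctnnb1, for a log2 fold change of 0.99 ± 0.47, with overlap. With single libraries left out, the log2 fold change of Rps12 ran from 0.66 without si-CTL replicate 3 (adjusted p = 0.648, edgeR) to 1.92 without si-CTL replicate 2 (adjusted p = 0.0997, edgeR). Rpl4 also had no overlap between groups in normalised values, and it was lower in si-Ctnnb1 by a small step, with a log2 fold change of -0.22 ± 0.12. With so deep a count its standard error was well below the median of 0.40 over the tested ribosomal protein genes. The call depended on single libraries. Without si-CTL replicate 3, Rplp0 had an adjusted p of 0.0430 (edgeR, log2 fold change -1.42), and without si-CTL replicate 2 it had an adjusted p of 0.703 (edgeR, log2 fold change -0.58). Without si-CTL replicate 2, Rpl27a, the gene with the second most counts, had an adjusted p of 0.0167 (edgeR, log2 fold change 0.89), beside 0.49 with all libraries.

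Activation by S45Y was examined next. Again no ribosomal protein gene passed the test. The shallower plasmid libraries left 28 of the 83 genes to test, and 0 had an adjusted p below 0.05 (edgeR), which was so for 0.0% of the 1819 genes tested. An unadjusted p of 0.05 or less was reached by 2 genes (7.14%), Rps15 and Rpl41, beside 5.88% of all genes. Both also changed at least 1.5-fold, as did 4.62% of all genes, and under DESeq2 there was 1 such gene. The groups did not overlap in 2 genes, Rps15 and Rps14, beside 10.9% of all genes. The median log2 fold change was 0.11 over the 28 genes and 0.02 over all genes tested, and the former was -0.12 under DESeq2 and -0.11 without a filter on low counts.

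Rps15, a protein of the small-subunit head, had 7, 9 and 13 counts under eGFP and 20, 20 and 23 under S45Y. The S45Y values all lay above those of eGFP. The log2 fold change was 1.35 ± 0.43 with an unadjusted p of 0.0024 and an adjusted p of 0.469 (edgeR), and the exact permutation p was 0.1. In the siRNA libraries Rps15 had 32, 39 and 28 counts in si-CTL and 34, 30 and 25 in si-Ctnnb1, which overlapped (log2 fold change -0.27). Rpl41 had 24, 17 and 18 counts under eGFP and 28, 33 and 20 under S45Y, for a log2 fold change of 0.72 ± 0.34, with overlap. Rpl6 had 6, 11 and 5 counts under eGFP and 2, 15 and 13 under S45Y, a log2 fold change of 0.67 ± 0.60, and its groups overlapped too. The lowest values belonged to large-subunit genes. Rpl32 had 25, 12 and 24 counts under eGFP and 11, 7 and 17 under S45Y (log2 fold change -0.57 ± 0.43). Rpl23 had 40, 20 and 18 counts under eGFP and 15, 6 and 24 under S45Y (-0.56 ± 0.39). Rpl23a, at the exit of the tunnel, had 25, 12 and 21 counts under eGFP and 13, 15 and 7 under S45Y (-0.47 ± 0.44). In all 3 the groups overlapped and the estimate was smaller than 1.5 times its standard error. With single libraries left out, the log2 fold change ran from 0.20 to 1.08 for Rpl6, from -0.88 to -0.34 for Rpl32, from -0.96 to -0.14 for Rpl23 and from -0.76 to -0.14 for Rpl23a, and none of these passed.

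The 2 control transfections were compared as well, which the study did not set out to do. Of the ribosomal protein genes with enough counts to be tested, most had higher values in eGFP than in si-CTL, but a smaller share passed the test than in the table as a whole. Of 37 genes tested, 2 had an adjusted p below 0.05, or 5.41%, beside 16.9% of the 2459 genes tested. At an unadjusted p of 0.05 or less there were 7 (18.9%), beside 29.2% of all genes, and with a change of at least 1.5-fold there were 6 (16.2%), beside 23.7%. The groups did not overlap in TMM-scaled values in 7 genes (18.9%), beside 31.4% of all genes, and all 7 were higher in eGFP. Of the 37 genes, 26 (70.3%) had a positive log2 fold change, beside 50.5% of all genes, and the median was 0.21, beside 0.01. The median was 0.47 over 22 large-subunit genes and 0.15 over 14 small-subunit genes. Without any filter on low counts the median over ribosomal protein genes was -0.08. Of the cholangiocyte markers that could be tested, Krt19 and Spp1 did not pass (log2 fold changes 0.36 and 0.36, adjusted p = 0.488 and 0.369 in edgeR). Krt8 and Krt18 were higher in eGFP too (log2 fold changes 1.14 and 0.76, adjusted p = 0.000580 and 0.00162 in edgeR). So was Vim of the fibroblast or stellate list (log2 fold change 0.90, adjusted p = 0.0209 in edgeR), while Acta2, the other gene of that list that could be tested, had a log2 fold change of -0.60 and did not pass (adjusted p = 0.493 in edgeR). The part of these markers in the result was not tested.

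Both genes that passed were of the large subunit. Rpl3, a protein close to the peptidyl transferase centre, had 6, 22 and 14 counts in si-CTL and 22, 20 and 4 in the less deeply sequenced eGFP libraries. Scaled to library size, this was a CPM of 52.4 ± 21.9 in si-CTL and 151 ± 94.2 in eGFP (SD, n = 3 each), and the log2 fold change was 1.49 ± 0.48 (adjusted p = 0.0228, edgeR). Rpl32 had 16, 34 and 23 counts in si-CTL and 25, 12 and 24 in eGFP, or a CPM of 94.1 ± 18.2 and 209 ± 83.2, for a log2 fold change of 1.12 ± 0.36 (adjusted p = 0.0240, edgeR). In both the groups overlapped, with 1 eGFP library near the si-CTL values. Under DESeq2 the adjusted p was 0.0696 for Rpl3 and 0.0867 for Rpl32, and neither passed with no filter on low counts (0.146 and 0.306), with a mean CPM of at least 20 (0.0695 and 0.0851), or with the replicate number as a block (0.0718 and 0.0506). Nor did either pass without si-CTL replicate 1 or without eGFP replicate 1. Rpl3 also did not pass without eGFP replicate 2 (adjusted p = 0.140, edgeR), nor Rpl32 without eGFP replicate 3 (0.195) or si-CTL replicate 3 (0.0639). Rpl3 shared 85.6% of its 50-base stretches with copies, and Rpl32 29.7%.

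Rpl37 had 12, 19 and 11 counts in si-CTL and 8, 20 and 11 in eGFP, and Rps23, of the decoding centre, had 2, 22 and 23 in si-CTL and 18, 16 and 8 in eGFP. After TMM scaling, both were higher in each eGFP library than in any si-CTL library, with log2 fold changes of 1.23 ± 0.47 and 1.24 ± 0.49 (adjusted p = 0.0631 and 0.0730, edgeR). As a share of the library total alone, the groups of Rps23 overlapped. Rpl37 passed without eGFP replicate 1 (adjusted p = 0.0429, edgeR) and Rps23 without si-CTL replicate 3 (0.0401), and over all single libraries left out their log2 fold changes ran from 0.80 to 1.45 and from 0.78 to 1.57. Rpl5, Rpl12, Rpl13a, Rpl23 and Rpl4 were the other 5 genes without overlap after TMM scaling, with log2 fold changes from 0.21 to 0.71. As a share of the library total alone, the groups of Rpl4, Rpl13a and Rpl23 overlapped as well, and those of Rpl5, Rpl12 and Rpl37 did not. Among the genes with lower values in eGFP were Rps15 (log2 fold change -0.42 ± 0.40) and Rps19 (-0.30 ± 0.48), and both overlapped between the groups. The comparison shares its si-CTL libraries with that of silencing and its eGFP libraries with that of activation, so the values of a gene in the 3 comparisons are not independent. Rpl32, for example, was at 0.67 in si-Ctnnb1, at -0.57 in S45Y and at 1.12 in eGFP on the log2 scale, each against its own control here.

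**Figure D5:**
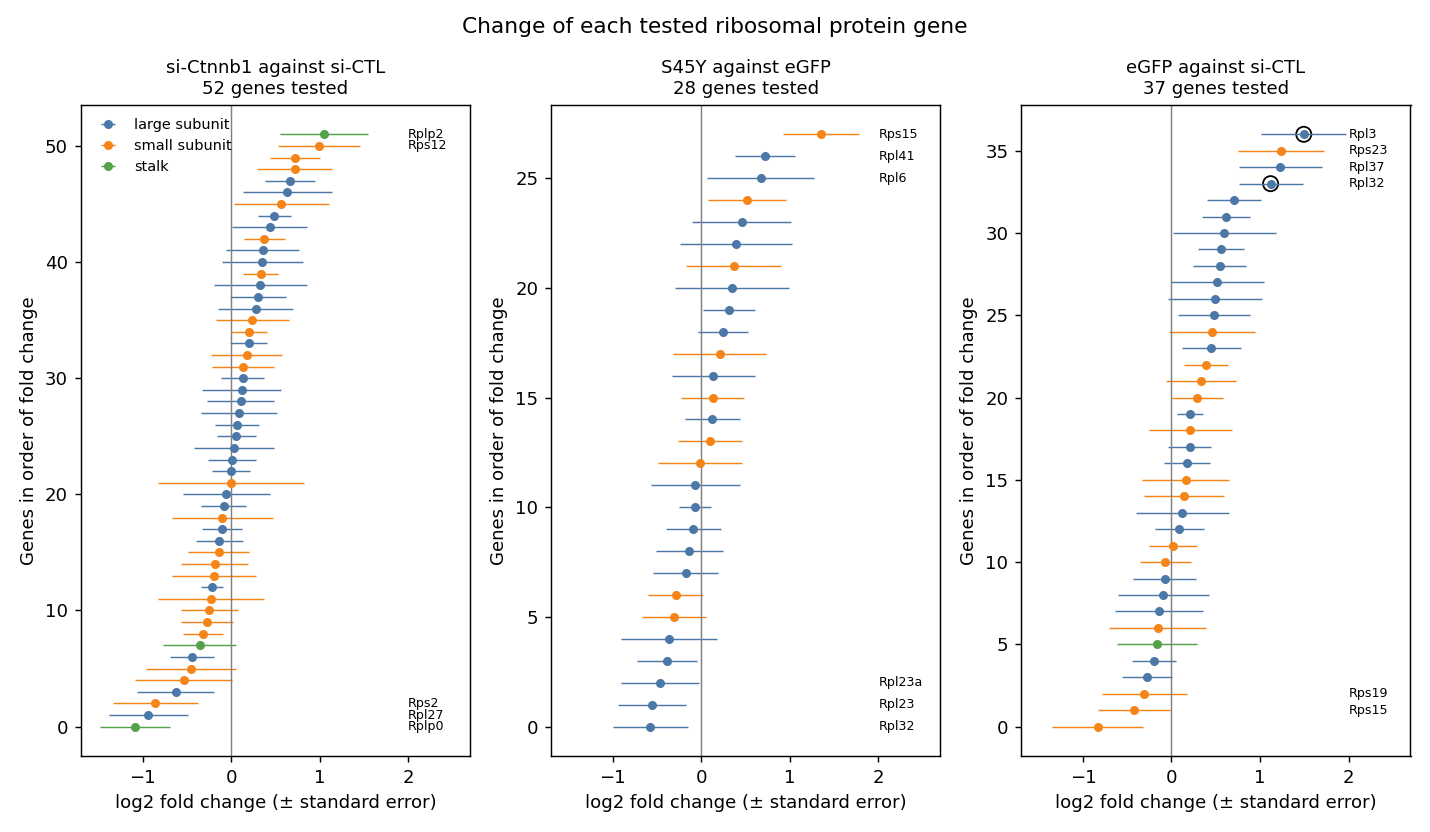
log2 fold change of each tested ribosomal protein gene (x axis, points with standard errors, edgeR) in order of change (y axis) for si-Ctnnb1 against si-CTL, S45Y against eGFP and eGFP against si-CTL, coloured by subunit, with the names of genes described in the text. Points lie on both sides of 0 in each panel, and the 2 circled points in the right panel, Rpl3 and Rpl32, have an adjusted p below 0.05.

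Ribosomal proteins whose symbols fall outside the naming rule had values in the same range. Fau, which is made as a ubiquitin-like fusion with a small-subunit protein, had 856 counts over the 12 libraries. Gnb2l1, which encodes the small-subunit scaffold RACK1, had 272. Rpsa had 152 and Rpl36al had 18 counts. Rps27a, made as a ubiquitin fusion, is matched by the rule and had 89 counts. None of these genes that could be tested had an adjusted p below 0.05 in any of the 3 comparisons (edgeR). With the 5 genes outside the rule added, the summed share was 0.737% for si-Ctnnb1, 0.794% for eGFP and 0.784% for S45Y. The 7 pseudogene rows that were left out had 124 counts, of which Rpl14-ps1 had 118, and 4 of the 7 rows had 0.

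Other genes of translation were described by lists. Of 59 ribosome biogenesis genes, 36 were tested in silencing and 14 in activation. Of 38 initiation factors, 18 and 8 were tested, of 16 elongation factors and further oligopyrimidine-start genes 11 and 9, and of 77 mitochondrial ribosomal proteins 8 and 4. None of these had an adjusted p below 0.05 in either comparison (edgeR), beside the 1.55% and 0.0% of all genes given above. Between the controls, 5 of 27 biogenesis genes tested passed, a share near the 16.9% of all genes tested. Bms1 and Tsr1, which act in small-subunit assembly, were higher in eGFP, with log2 fold changes of 1.26 and 0.67. Ddx21, a nucleolar helicase, Nolc1, a nucleolar chaperone, and Rrs1, which acts in large-subunit assembly, were lower, with log2 fold changes of -1.15, -0.82 and -1.45. Of 4 mitochondrial ribosomal proteins tested, 2 passed, beside the same 16.9% of all genes: Mrpl10 was higher (log2 fold change 1.40) and Mrps25 lower (-0.43). Mrps25 alone had 956, 1500 and 1364 counts in si-CTL. None of the 10 elongation and 12 initiation genes tested passed between the controls. The summed share of the biogenesis list was 0.554% ± 0.0331 for si-CTL, 0.553% ± 0.0101 for si-Ctnnb1, 0.472% ± 0.0163 for eGFP and 0.457% ± 0.0344 for S45Y (SD, n = 3 each). On this scale the plasmid libraries lay below the siRNA libraries in each case. Without Rn45s in the library total, an alternative added after the values were seen, the biogenesis share overlapped between them, at 0.540% to 0.607% over the siRNA libraries and 0.502% to 0.558% over the plasmid libraries.

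The start sites of the ribosomal protein genes were read from RefSeq (GRCm38.p6) for the oligopyrimidine tract. The tract was searched on the gene's strand as a C and at least 4 further bases that are each C or T, beginning at most 5 bases from an annotated start. An entry was found for 62 of the 83 genes. The tract was present in 29 of them (46.8%), beside 21.2% of the 27025 genes with an entry. It was present in 15 of 32 large-subunit genes and in 11 of 22 small-subunit genes. The genes with the tract had a median of 107 counts over the libraries, and those without it 118. A match is a description of the letters around an annotated start, and a gene without one may start elsewhere. The windows below, 30 bases from 15 before the start onward, are those of genes described above, with counts from the most to none, and the capitals mark the tract.
Rpl27a (chr7:109519180-109519209, plus strand, 923 counts): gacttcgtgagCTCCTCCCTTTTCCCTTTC
Rps24 (chr14:24490663-24490692, plus strand, 665 counts): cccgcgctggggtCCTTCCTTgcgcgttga
Rplp2 (chr7:141447636-141447665, plus strand, 115 counts): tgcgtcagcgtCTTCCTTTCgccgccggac
Rps27 (chr3:90213634-90213663, minus strand, 0 counts): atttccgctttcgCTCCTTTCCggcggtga
Rpl4 (chr9:64173372-64173401, plus strand, 2085 counts): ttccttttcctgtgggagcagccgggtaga
Rps15 (chr10:80292416-80292445, plus strand, 280 counts): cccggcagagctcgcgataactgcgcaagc
Rpl26 (chr11:68901551-68901580, plus strand, 0 counts): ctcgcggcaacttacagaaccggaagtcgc

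The first 4 windows hold the tract, with a run of 20 bases in Rpl27a, of which the window shows all but the last, 8 in Rps24, and 9 in each of Rplp2 and Rps27, and the last 3 do not. Rps24 has a further annotated start without the tract (window chr14:24490738-24490767). Genes with high counts and genes at 0 were found on both sides.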

How the data were processed

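RNA of SMCCs was sequenced as 12 libraries, 3 per group, and all were used. The authors trimmed reads (Trimmomatic 0.38), aligned them to mm10 (HISAT2 2.1.0) and counted them per gene symbol (HTSeq 0.11.2), per the labels and methods. The deposited values are these raw counts. Annotation, strand setting, read type and multi-match handling are not given in the sources used here.

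The genes described were chosen by symbol. The members, the other gene lists and the tests were chosen with earlier results of these data known. Each comparison was fitted over the whole table on its 6 libraries with edgeR 4.0.16 in R 4.3.3 (filterByExpr with minimum count 10 and total 15, TMM, quasi-likelihood test, prior count 0.125, Benjamini-Hochberg over all genes tested). Single genes were also tested on log2 CPM by an exact permutation test, two-sided, where 0.1 is the smallest p. The genes named were the largest changes in each direction, those that passed, the highest in counts or per kb, the stalk, paralog pairs, genes at 0 and ribosomal proteins outside the rule. Others, such as Rps14, Rpl27a and the genes without overlap, were named after their values were seen. Symbols were matched to GENCODE M21, with 23376 of 24421 found, and lengths are those of 1 principal transcript per gene. Totals between 91468 and 326686 counts set the precision. Alternatives were DESeq2 1.42.0, its size factors, other filters, one fit of all libraries, a replicate block, tables without Rn45s and leaving out each library. The fitting code was tested on simulated data. RefSeq protein sequences were not used here. A few genes that the rule for named genes selects are not reported here.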

Additional observations from a re-analysis of the deposited data

How the results depend on the processing

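No ribosomal protein gene was called in silencing or activation under any alternative that kept all libraries. Without 1 library, silencing had 0 to 1 genes called, Rpl27a without si-CTL replicate 2 or Rplp0 without si-CTL replicate 3. Past the 1.5-fold rule, DESeq2 left 2 genes in silencing and 1 in activation. Between the controls, 0 genes were called under DESeq2, with no filter on low counts, with a mean CPM of at least 20, and with the replicate block, and 0 to 2 without 1 library. The replicate numbers did not pair the libraries (correlations of deviations between -0.051 and 0.027 for the same number), and the replicate block gave 0 calls in silencing and 0 in activation as well. The median log2 fold change of the genes tested changed sign: without 1 library it ran from -0.099 to 0.19 in silencing and from -0.12 to 0.089 in activation. In activation it was -0.119 under DESeq2, -0.114 with no filter, -0.054 at a CPM of 20 and -0.048 in one fit of all 12 libraries, and between the controls it was -0.084 with no filter. The cause was not tested, except that these filters change which genes are counted.

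The summed share moved by construction with its members and denominator. Without Rn45s in the total it was 0.6779% for si-CTL, 0.6835% for si-Ctnnb1, 0.8355% for eGFP and 0.8192% for S45Y. Over TMM effective library sizes it was 0.706% for si-CTL, 0.7454% for si-Ctnnb1, 0.8337% for eGFP and 0.8075% for S45Y. Without genes overlapped on the opposite strand it was 0.5164% for si-CTL, 0.5306% for si-Ctnnb1, 0.5644% for eGFP and 0.5543% for S45Y. Without Rpl4 these shares were 0.5591%, 0.5919%, 0.6328% and 0.6228% in the same order, and with 5 further ribosomal proteins 0.7083%, 0.7371%, 0.7938% and 0.7838%. Of the alternative values of counts, medians and shares, 78 stayed within 1 SD between libraries (shares and medians) or within 1.5 times (counts), and 38 did not. At these depths most ribosomal protein genes have few counts per library, 31 of 83 could not be tested in silencing, 55 in activation and 46 between the controls, and a gene that did not pass is not shown to be without change.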

Other observations

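The genes just inside and outside the filter on low counts differed between comparisons because of depth. In the siRNA libraries 52 ribosomal protein genes were tested, and in the plasmid libraries 28. All 7 paralogs were outside it in each comparison, and so were the 3 stalk genes in activation. Rplp2 had 4, 13 and 6 counts in si-CTL and 17, 0 and 9 in eGFP. It was not tested between the controls with all 6 libraries. It entered that test without eGFP replicate 2, the library at 0. Its log2 fold change of 2.11 there follows from leaving out that library and is not read as a difference. Rplp2 is among the genes counted above as called without 1 library.

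Rpl37rt, the retrogene row beside Rpl37, had 39 counts over the 12 libraries, from 0 to 11 per library, whereas Rps27rt had none.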
